A study of Mus musculus with 2 samples.

Results

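The Hox clusters of the mouse hold 6 named microRNA genes: Mir10a, Mir10b, Mir196a-1, Mir196a-2, Mir196b and Mir615. They were taken by these gene symbols, whatever their reads, from the 2202 microRNA genes of the GENCODE M21 annotation. All 6 were matched to an Ensembl identifier in the tables of both libraries, and 5 had at least 10 reads in each. The libraries are small RNA sequencing of total RNA, of fragments under 30 nucleotides, from gastrocnemius, a large muscle of the calf. By the labels the tissue came from 2 female B6CASTF1/J mice aged 36 days, hybrids of C57BL/6J and CAST/EiJ parents, with no treatment named. The labels call the libraries biological replicates 1 and 2, but both records carry the same donor identifier. Whether there were 1 or 2 animals is therefore not settled, and the spread between the libraries may be technical only. There is 1 group and no contrast between conditions.

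Hox genes encode transcription factors that give the body axis and the limbs their regional identity. They lie in 4 clusters, in an order along the chromosome that matches the order of their expression along the body. The microRNAs between them are transcribed from the same clusters, and miR-10 and miR-196 are known to act on messenger RNAs of Hox genes. A microRNA is cut from a hairpin and pairs with its targets mainly through its seed, bases 2 to 8 counted from the 5′ end. Hindlimb muscle arises from cells of the lumbar region, where the posterior Hox genes are active.

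The 5 mature forms printed here fall into 3 groups by seed, and they are shown because the seed decides which members can share targets and the rest of the sequence decides which reads can be told apart. Sequences are from RefSeq on GRCm38.p6, 5′ to 3′, with the seed in capitals.

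miR-10a-5p: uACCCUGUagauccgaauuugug

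miR-10b-5p: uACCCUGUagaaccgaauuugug

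miR-196a-5p: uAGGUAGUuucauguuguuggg

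miR-196b-5p: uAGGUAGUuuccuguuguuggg

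miR-615-3p: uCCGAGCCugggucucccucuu

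miR-10a-5p and miR-10b-5p differed at 1 of 23 bases (U12A, the base of miR-10a first, counted from the 5′ end). miR-196a-5p and miR-196b-5p differed at 1 of 22 bases, at the same position (A12C, the base of miR-196a first). Both differences lie outside the seed. No other gene of the RefSeq table carried the seed ACCCUGU of miR-10 or AGGUAGU of miR-196. Relatives of miR-10 from genes outside the Hox clusters, miR-99a-5p and miR-100-5p, have the seed ACCCGUA:

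miR-99a-5p: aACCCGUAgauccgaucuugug

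miR-100-5p: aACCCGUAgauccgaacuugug

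The 3 Mir196 hairpins are shown with both mature arms in capitals, since their flanks set which reads have a single place in the genome.

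Mir196a-1: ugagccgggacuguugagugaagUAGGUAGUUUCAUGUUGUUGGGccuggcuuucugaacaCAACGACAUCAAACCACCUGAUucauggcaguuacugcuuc

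Mir196a-2: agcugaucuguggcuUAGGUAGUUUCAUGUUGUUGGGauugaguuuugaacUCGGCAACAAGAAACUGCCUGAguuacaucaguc

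Mir196b: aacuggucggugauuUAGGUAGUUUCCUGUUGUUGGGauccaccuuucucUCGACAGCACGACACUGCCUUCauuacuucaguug

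Mir196a-1 and Mir196a-2 give an identical 5p form, and their hairpins shared a stretch of exactly those 22 bases. A read that lies within it fits both genes, and the tables count a read with more than one possible place for none of them. The counts of these genes therefore hold only reads that reach past the 22 bases or come from the 3p arm, whose sequences differed at 17 of 22 positions. For the other members no mature form was found whole in another microRNA hairpin, also when shortened to its first 20 or 18 bases. The longest stretch that Mir10a and Mir10b shared was 15 bases. Mir196b shared at most 12 bases with another hairpin and Mir615 at most 14. Of 1018 microRNA genes matched to the RefSeq table, 111 (10.9%) had a mature form found whole in another hairpin. The search covered annotated hairpins and transcripts, and the genome sequence was not used here.

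Mir10a (ENSMUSG00000065519.1) and Mir10b (ENSMUSG00000065500.3) hold matching places in their clusters, just upstream of a group 4 Hox gene, on the strand of the Hox genes. Mir10a lies at chr11:96317165-96317274 in HoxB on the plus strand, 1495 bases before the coding sequence of Hoxb4 and 12030 bases after that of Hoxb5. No other annotated gene overlaps it. Mir10b lies at chr2:74726070-74726137 in HoxD on the plus strand, 1141 bases before the coding sequence of Hoxd4. It is intronic in 2 of 3 transcripts of Hoxd4 and in 1 of 6 of Hoxd3.

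The Mir196 genes lie upstream of group 9 Hox genes. Mir196b (ENSMUSG00000065443.1) lies at chr6:52230081-52230165 in HoxA on the minus strand. It is 2343 bases after the coding sequence of Hoxa10 and 3976 bases before that of Hoxa9. Of 5 transcripts of Hoxa9, 2 hold it in an exon and 1 in an intron. Mir196a-2 (ENSMUSG00000065488.2) lies at chr15:102973350-102973434 in HoxC on the plus strand, 2277 bases after the coding sequence of Hoxc10 and 8218 bases before that of Hoxc9. It is in an intron of 1 of 2 annotated Hoxc5 transcripts. Mir196a-1 (ENSMUSG00000065546.1) lies at chr11:96265164-96265265 in HoxB on the plus strand, 6276 bases before the coding sequence of Hoxb9. The next Hox coding sequence upstream, that of Hoxb13, is 68937 bases away.

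Mir615 (ENSMUSG00000076010.1) lies at chr15:103014910-103015001 in HoxC, in an intron of both annotated Hoxc5 transcripts. It stands 374 bases after one coding exon of Hoxc5 and 226 bases before the next. All coordinates are on mm10. The spans of the 4 clusters hold 1 further annotated microRNA gene, Gm44463 in HoxD, which had 0 reads in both libraries. Such a count allows up to 3 reads, which is 1.88 counts per 1000000 gene-assigned reads (CPM) in replicate 1 and 1.44 CPM in replicate 2.

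**Figure D1:**
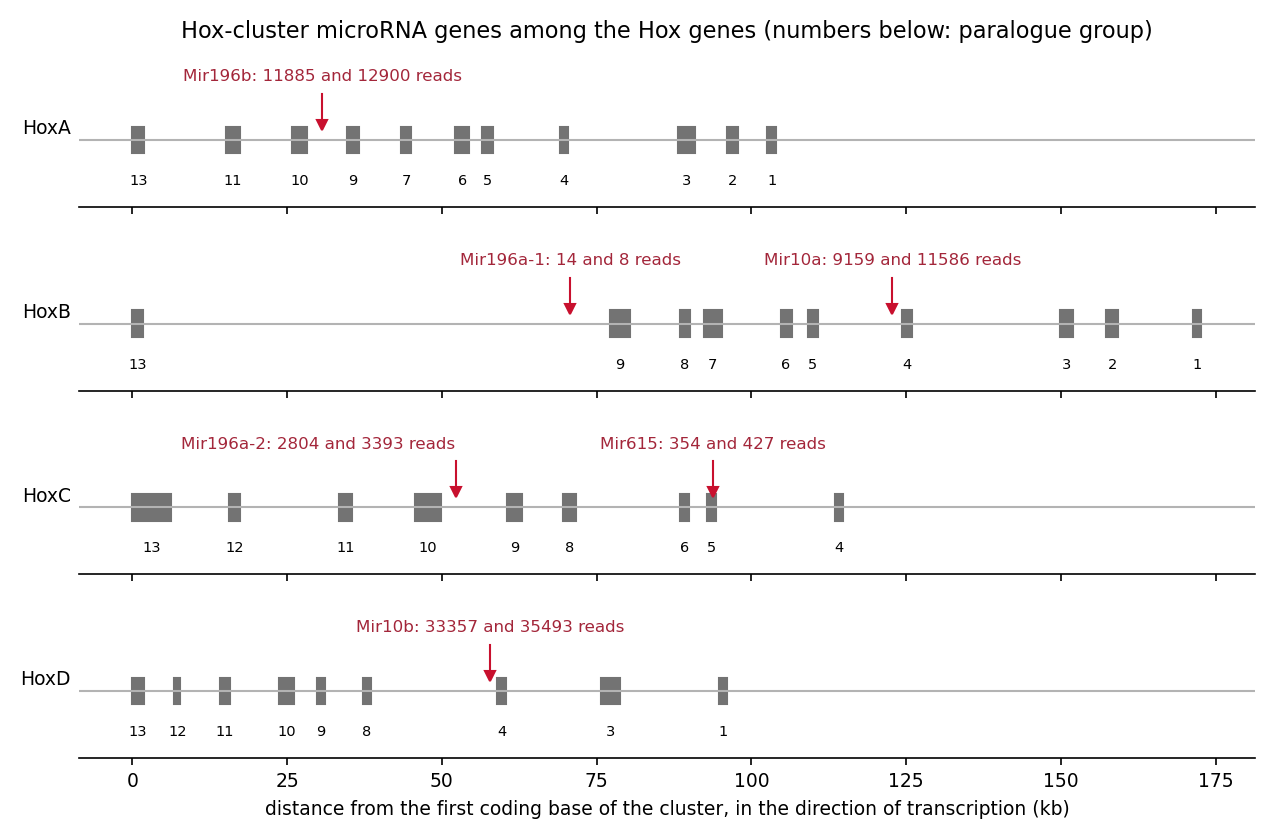
The 4 Hox clusters drawn in the direction of transcription, with the distance from the first coding base on the horizontal axis in kb, grey blocks for the span from first to last coding base of each Hox gene, and red arrows for the microRNA genes with their reads in replicates 1 and 2. Mir10a and Mir10b stand before group 4 genes and the Mir196 genes before group 9 genes, and Mir196a-1 had 14 and 8 reads.

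Together the 6 genes held 57573 reads in replicate 1 and 63807 in replicate 2. That was 3.61% of gene-assigned reads in replicate 1 (exact 95% binomial interval 3.58 to 3.64) and 3.07% in replicate 2 (3.05 to 3.09). The mean was 3.34% ± 0.383 (SD, n = 2). The libraries had 1593787 and 2078101 gene-assigned reads. Intervals cover counting error only. Levels of different genes are compared as reads per gene, since the mature forms are of 22 or 23 bases. In whole muscle, fewer cells of a type and less of the RNA per cell cannot be told apart.

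Mir10b, from HoxD, was the highest member. It had 33357 reads in replicate 1 and 35493 in replicate 2, which is 20929 CPM (20708 to 21153) and 17079.5 CPM (16904 to 17257). It ranked at 12 and 15 among the 2202 genes and held 1.90% ± 0.272 of gene-assigned reads (SD, n = 2). Mir10a, its HoxB relative, had 9159 and 11586 reads, or 5747 CPM (5630 to 5865) and 5575 CPM (5474 to 5677). It ranked at 27 and 31. Mir10b exceeded Mir10a in both libraries, by 3.64 reads to 1 in replicate 1 (3.56 to 3.73) and by 3.06 to 1 in replicate 2 (3.00 to 3.13). The log2 ratio was 1.74 ± 0.18 (SD, n = 2). Both genes give forms with the same seed, and their 5p forms differ only by U12A.

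Mir196b, the only member in HoxA, was second in level. It had 11885 and 12900 reads, or 7457 CPM (7324 to 7592) in replicate 1 and 6208 CPM (6101 to 6315) in replicate 2. It ranked at 25 and 27. Mir196b was above Mir10a in both libraries, and the values of the genes did not overlap. The gap between the lower Mir196b value and the higher Mir10a value was smaller than the difference between the Mir196b libraries, so their order is not beyond the replicate spread. All other neighbours in the order of levels stood further apart than the replicates of either gene.

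Mir196a-2, from HoxC, had 2804 and 3393 reads, or 1759 CPM (1695 to 1826) and 1633 CPM (1578 to 1689). It ranked at 51 and 47. Mir196a-1, from HoxB, had 14 and 8 reads, or 8.78 CPM (4.80 to 14.7) and 3.85 CPM (1.66 to 7.59). It was under the minimum of 10 reads in replicate 2. Placed reads of Mir196a-2 exceeded those of Mir196a-1 by 200 to 1 in replicate 1 (119 to 367) and by 424 to 1 in replicate 2 (215 to 983). These counts do not give the level of miR-196a-5p, because reads of its 22 bases belong to neither gene. How many of them there were was not tested, since the tables hold multiply matched reads only as a total. Mir196b exceeded Mir196a-2 by 4.24 reads to 1 (4.07 to 4.42) and by 3.80 to 1 (3.66 to 3.95), a log2 ratio of 2.01 ± 0.11 (SD, n = 2). The same limit holds for that ratio.

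Mir615, the Hoxc5 intron gene, had 354 and 427 reads, or 222 CPM (200 to 247) and 205.5 CPM (186 to 226). It ranked at 122 and 119. Mir196a-2, from the same cluster, had 7.92 reads for each of Mir615 in replicate 1 (7.09 to 8.87) and 7.95 in replicate 2 (7.18 to 8.81), a near constant ratio.

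**Figure D2:**
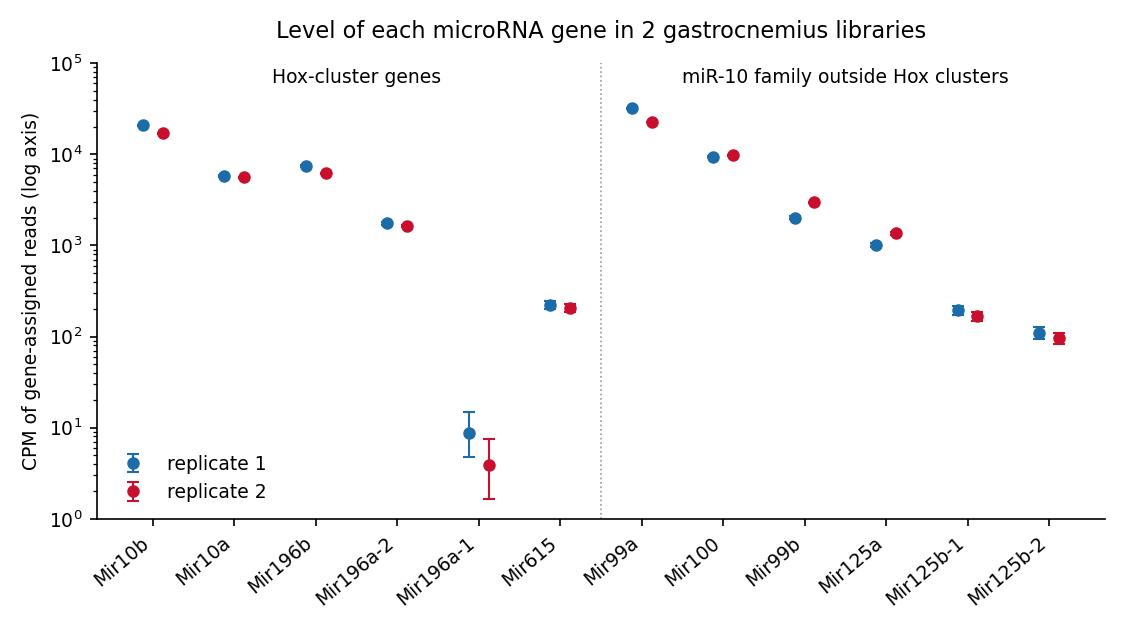
CPM of gene-assigned reads on a log axis for the 6 Hox-cluster genes and for 6 genes of the miR-10 family outside the clusters, with 1 point per library and exact 95% binomial intervals. Mir10b is highest of the 6, at 20929 CPM in replicate 1, and Mir196a-1 lies below 10 CPM in both libraries.

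By cluster, HoxD held most of the reads through Mir10b alone, 57.9% of the Hox-cluster reads in replicate 1 and 55.6% in replicate 2. HoxA followed with 20.6% and 20.2% through Mir196b. HoxB held 15.9% and 18.2%, nearly all of it from Mir10a. HoxC held 5.49% and 5.99%, from Mir196a-2 and Mir615. The order of the clusters was the same in both libraries. That of HoxA and HoxB rests on Mir196b and Mir10a and is not beyond the replicate spread. The order of the clusters holds for uniquely placed reads, since HoxB and HoxC lack the reads of miR-196a-5p.

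By seed, the make-up of the uniquely placed reads was nearly the same in both libraries. The miR-10 genes held 73.85% of Hox-cluster reads in replicate 1 and 73.78% in replicate 2. The Mir196 genes held 25.54% and 25.55%, and Mir615 held 0.615% and 0.669%. The Mir196 share leaves out any read that lies within miR-196a-5p. Within the miR-10 pair the balance moved, as the share of Mir10a was 15.9% and 18.2%. The near equality of the gene groups was noticed in the values and rests on 2 libraries.

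**Figure D3:**
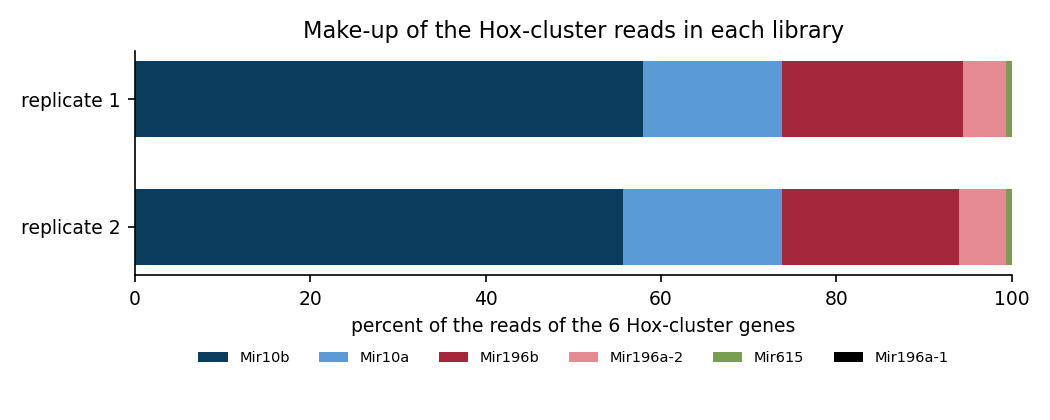
Share of the reads of the 6 Hox-cluster genes taken by each gene, in percent, with 1 bar per library. Mir10b takes 57.9% and 55.6%, and the boundary between the miR-10 genes and the Mir196 genes lies at nearly the same place in both bars.

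The libraries were then set against each other gene by gene, with a two-sided exact binomial test on reads after TMM scaling, adjusted by Benjamini-Hochberg over all 273 detected genes. This compares 2 libraries and not conditions. Across all detected genes 63.0% were called, and 29.7% were called lower in replicate 2. Of the 5 detected Hox-cluster genes, 2 were called and both were lower in replicate 2. With 5 genes, no more is read from that share. The median log2 ratio of the 5 was -0.05 against 0.02 over all detected genes. Their median absolute log2 ratio was 0.05 against 0.36.

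Mir10b was 1.17-fold lower in replicate 2 (95% counting interval 1.15 to 1.19, adjusted p = 1.24e-92 by the exact binomial test). Mir196b was 1.15-fold lower (1.12 to 1.18, adjusted p = 3.1e-26). Both are small differences on many reads. When edgeR's exact test was run with one dispersion for all genes, estimated from these same libraries, neither was called (adjusted p = 1 for each). At that dispersion 1.47% of all detected genes were called and 0 of the 5 members, whose lowest unadjusted p was 0.745. The dispersion (square root 0.335) takes the differences between these libraries as spread. Folds as small as those of the members could not pass at it, so nothing is concluded from these non-calls.

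Mir10a, Mir196a-2 and Mir615 did not pass the binomial test. Mir10a had a fold of 1.02 (0.989 to 1.04, adjusted p = 0.335), replicate 2 over replicate 1. That of Mir196a-2 was 0.972 (0.924 to 1.02, adjusted p = 0.364) and that of Mir615 was 0.969 (0.840 to 1.12, adjusted p = 0.757). These p-values do not show that the libraries had equal levels. With scaling by total gene-assigned reads the sign of Mir10a turned, to a log2 ratio of -0.044, and both Mir10a and Mir196a-2 were then called lower. That scaling moved all detected genes alike, by -0.067, so the turn follows from the scaling and is not particular to Mir10a. Mir196a-1 had a fold of 0.459 (0.167 to 1.17) on 14 and 8 reads and was not tested.

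**Figure D4:**
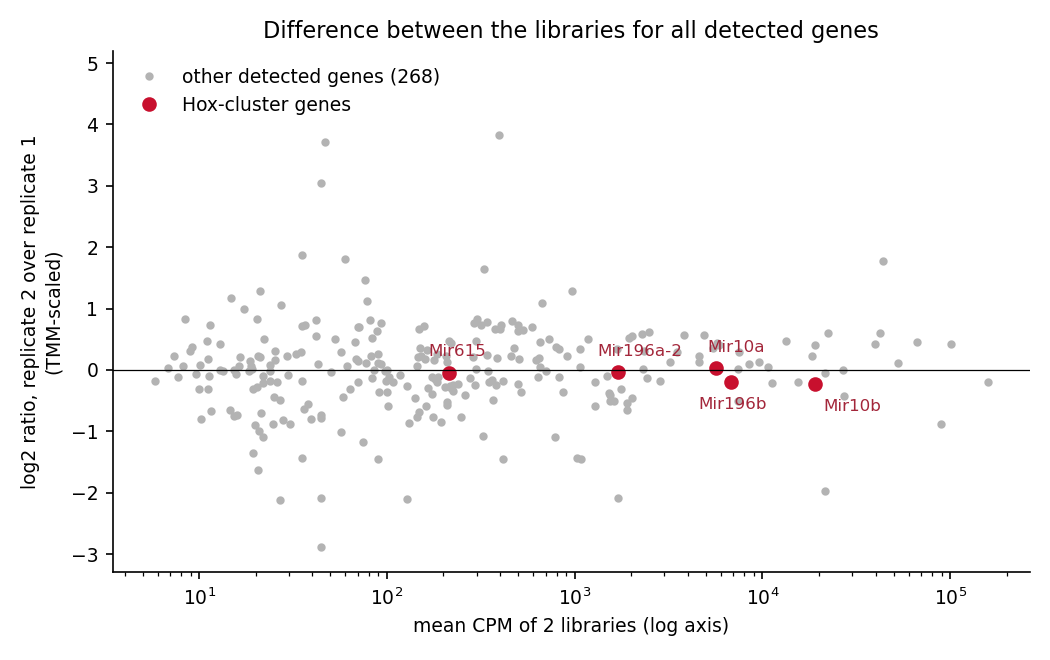
Log2 ratio of replicate 2 over replicate 1 after TMM scaling against mean CPM on a log axis for the 273 detected genes, with the 5 detected Hox-cluster genes in red. The red points lie between -0.23 and 0.02 across a wide range of levels, and 33 of all detected genes lie beyond a 2-fold difference.

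**Figure D5:**
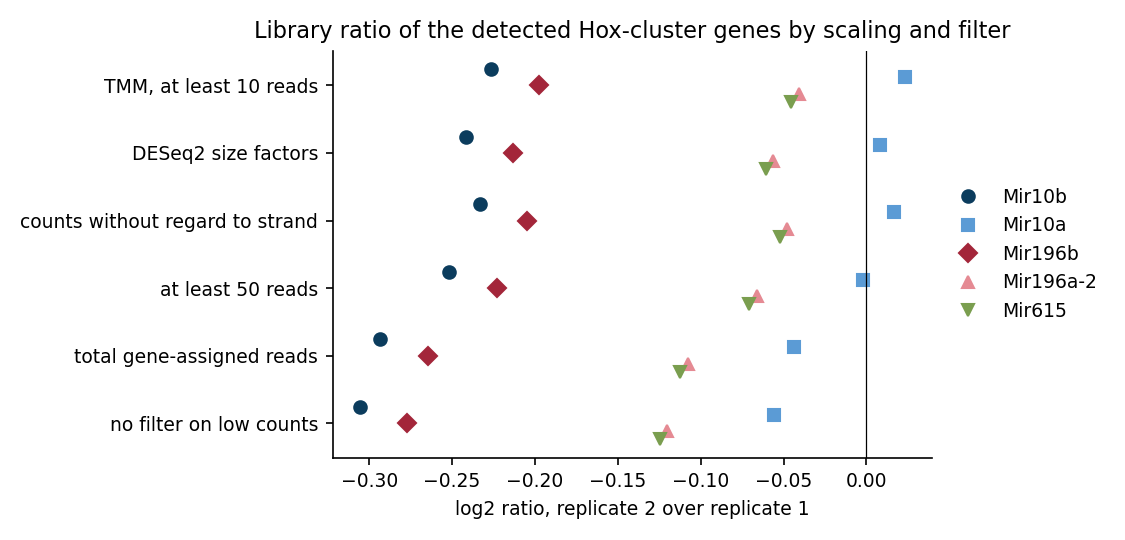
Log2 ratio of replicate 2 over replicate 1 for the 5 detected Hox-cluster genes under 6 choices of scaling and filter. Mir10b and Mir196b are on the left under each choice. Mir10a crosses 0, from 0.02 with TMM to -0.056 with no filter on low counts, a setting that moves all detected genes by -0.079.

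The absolute log2 ratio of Mir10b, 0.23, was the largest among the 5, and 98 of 273 detected genes (35.9%) had a smaller one. The marker lists of cell types differed between the libraries to unequal extents. The 8 skeletal muscle genes, of which 7 were detected, held 2.21% and 6.94% of reads. Nearly all of that was Mir206, with 32871 and 139295 reads. This holds for uniquely placed reads only. By their names Mir1a-1 and Mir1a-2 are copies, as are Mir133a-1 and Mir133a-2, and a read that fits both copies is counted for neither. The counts of these 4 genes therefore do not give the levels of miR-1a and miR-133a. Mir499 also rose in replicate 2, from 86 to 1527 reads, whereas Mir133b was near level at 26 and 34. Mir1a-2 (587 and 835 reads) and Mir486 (1549 and 2431) were called higher in replicate 2 by the binomial test. Mir1a-1 (32 and 24 reads) and Mir133a-1 (47 and 43) did not pass that test. The smooth muscle markers Mir143 and Mir145a held 12.03% and 6.25%, and the erythroid markers Mir451a and Mir144 held 3.73% and 0.898%. The 3 endothelial genes held 8.86% and 11.3%, nearly all from Mir126a (140627 and 233890 reads), while Mir221 and Mir222 did not pass the binomial test. The 4 leukocyte genes held 0.142% and 0.209%, but they moved in opposite directions. Mir155 rose from 928 to 2820 reads and Mir150 from 500 to 1028. Mir142 fell from 715 to 422 and Mir223 from 123 to 76. The 4 fibroblast genes, of which 3 were detected, held 0.0652% and 0.0698%. That near-equal sum, of uniquely placed reads only, hides opposite changes. Mir199b fell from 334 to 97 reads and Mir214 rose from 675 to 1316, whereas Mir199a-2 was near level at 30 and 37. By their names Mir199a-1 and Mir199a-2 are copies as well, so their counts do not give the level of miR-199a. Mature forms that Mir199b may share with other genes were not examined, so its counts may be incomplete too. Of 6 neural markers none was detected and 5 had 0 reads, but these genes have copies with the same mature form, so their counts set no limit. The 7 epithelial genes, of which 3 were detected, held 0.0280% and 0.0152%. Mir203 fell from 357 to 261 reads and Mir200c from 42 to 28, whereas Mir205 was near level at 13 and 15. The liver gene Mir122 had 321 and 347 reads. The heart gene Mir208a had 1 and 15 reads and was not detected. The part of these cell types in the Mir10b and Mir196b differences was not tested.

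Outside the Hox clusters, the miR-10 family has 6 further genes. Their likeness in sequence to the Mir10 genes was not ranked against that of other genes. Mir99a had 31952 and 22654 CPM, above Mir10b in both libraries. For each read of Mir99a there were 0.655 reads of Mir10b in replicate 1 (0.646 to 0.664) and 0.754 in replicate 2 (0.744 to 0.764). Mir100 had 9453 and 9825 CPM, between Mir10b and Mir10a. Mir99a, Mir99b and Mir100 together held 3.94% ± 0.565 of gene-assigned reads, and the Mir10 genes 2.47% ± 0.284 (SD, n = 2). Of the 6 genes, 3 were called higher and 1 lower in replicate 2 by the binomial test, near the 63.0% called over all detected genes. At the common dispersion edgeR's exact test called none of the 6, with a lowest unadjusted p of 0.377 and with the limit given above for that dispersion. Mir99a was 1.35-fold lower (1.33 to 1.36) and Mir99b 1.53-fold higher (1.47 to 1.60). Their median absolute log2 ratio was 0.29, against 0.36 over all detected genes. The Mir125b copies give an identical 5p form, so their counts are incomplete like those of Mir196a. Whether the groups of genes differ in this was not tested.

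The genes closest in level over the 2 libraries, by distance in log2(CPM + 1), were the following. Mir30a (22368 and 20719 CPM), Mir26b and Mir411 were closest to Mir10b. Mirlet7f-2 (4930 and 6031 CPM), Mir151 and Mir191 were closest to Mir10a. Mir30e (7571 and 7278 CPM), Mir21a and Mir379 stood next to Mir196b. Mir532 (1993 and 1540 CPM), Mir337 and Mir376c stood next to Mir196a-2. Mir193b (205 and 213 CPM), Mir467d and Mir16-2 stood next to Mir615. With 2 libraries this likeness is one of level alone.

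All reads of the 6 members lay on the strand of the gene, with 0 on the opposite strand in both libraries. Their counts were the same when strand was disregarded. The annotated genes that overlap a member all lie on its own strand.

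To place the mature forms beside their known targets, the 3′UTRs of 21007 protein-coding genes of the M21 annotation were searched on the transcript strand, with 1 transcript per gene. The motif searched is the reverse complement of the seed followed by A. For miR-196 it is ACTACCTA, which 5 of 39 Hox genes held (12.8%): Hoxa5, Hoxa7, Hoxb6, Hoxb7 and Hoxc8. Of all genes, 1.13% held it. For miR-10 it is ACAGGGTA, held by Hoxa3, Hoxb3 and Hoxd1, or 7.69% of Hox genes, and by 1.82% of all genes. For miR-615-3p it is GGCTCGGA, held by 0 of 39 Hox genes and 0.467% of all. In windows of equal length, the first 500 bases of longer 3′UTRs, the miR-196 motif was in 12.1% of 33 Hox genes and 0.318% of 13212 genes. The miR-10 motif was in 3.03% and 0.613% of them, where the 3.03% is 1 Hox gene and no more is read from it. The miR-196 motif shares the run CTACCT with the let-7 motif, CTACCTCA. A match is a description of letters and shows no binding.

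Hoxb8, the textbook target of miR-196, has a site that pairs with the whole of miR-196a-5p. It is shown as the closest match in any of these 3′UTRs, with Watson-Crick pairs in capitals and the G:U wobble in lower case.

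Hoxb8 site: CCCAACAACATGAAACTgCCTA

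It lies at chr11:96284888-96284909 on the plus strand (mm10), in the HoxB cluster between Mir196a-1 and Mir10a, and starts at base 418 of the 3′UTR. Of 22 bases, 21 formed Watson-Crick pairs and 1 a wobble. No other window of the 21007 3′UTRs had as many Watson-Crick pairs with miR-196a-5p. With miR-196b-5p the same site had 20 Watson-Crick pairs and 1 wobble, again with no equal. The wobble lies within the seed match, so Hoxb8 is not among the 5 genes with the motif. The levels of Hox messenger RNAs were not measured in these libraries.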

How the data were processed

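Per the labels and a read-me file, the authors deposited raw read counts for each microRNA gene of M21 on mm10. Which aligner and counter they ran is not given in the sources used here. The tables have no header. Column meanings were read from their layout, and the column of sense-strand counts was taken. Each entry is a hairpin, so arms are not told apart. The genome is that of C57BL/6J, and the effect of CAST/EiJ alleles on the counts was not tested.

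The summary entries stayed out of library sizes: 75.4% of 9538917 reads in replicate 1 and 77.6% of 14072830 in replicate 2 matched several places, 6.37% and 5.98% were unmapped, and 1.49% and 1.65% lay outside microRNA genes. CPM and percentages are over gene-assigned reads. Detection meant 10 reads or more in each library. Levels of different genes carry unequal adapter ligation.

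PCR copies are not recognisable, so reads are not independent molecules. Intervals are exact (Clopper-Pearson) at 95%. Libraries were scaled by TMM (edgeR 4.0.16, R 4.3.3) and tested with a two-sided exact binomial test at an adjusted p of 0.05. A quasi-likelihood test could not be fitted, because 2 libraries set against each other leave no residual degrees of freedom. The procedure was tested on simulated counts, in which libraries differed only by counting error and by set changes. That setting lacks the further spread of real libraries, so it does not show how the test behaves on them. Named were all members, 6 relatives, the 3 nearest genes of each member with a mean of at least 100 reads, and cell type markers. Beyond that rule, the Hox genes, Gm44463 and the ratios other than those within the Mir10 and Mir196 groups were chosen after their values were seen. The members and lists were chosen with earlier results of these data known. Alternatives covered denominators, strand, scaling (with DESeq2 1.42.0), read minimums, pseudocounts, the common dispersion and each replicate. Other software was scipy 1.17.1, pandas 2.3.3 and numpy 2.4.6 in Python 3.11.15, with matplotlib 3.10.9 for plots.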

Additional observations from a re-analysis of the deposited data

Results flagged for a closer look

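Some reads were counted for no Hox-cluster gene. Multiply matched reads came to 7195252 in replicate 1 and to 10919725 in replicate 2. A further 142257 reads in replicate 1, and 232773 in replicate 2, had a single place but lay in no microRNA gene. The opposite-strand column summed over all genes to 508723 in replicate 1 and 600581 in replicate 2, with 0 at the 6 Hox-cluster genes. The multiply matched reads can include miR-196a-5p, and how many was not tested.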

How the results depend on the processing

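The share of the 6 genes, 3.34%, was 0.528% with all reads of the table as denominator, 3.98% without the most abundant gene and 4.81% with counts without regard to strand. With all reads as denominator the mean CPM was 3009.5 for Mir10b, 1081 for Mir196b, 892 for Mir10a, 268 for Mir196a-2, 33.7 for Mir615 and 1.02 for Mir196a-1. Without the most abundant gene it was 22647, 8140.5, 6736, 2019 and 254 for the first 5 of these, and without regard to strand 27381, 9842, 8141, 2440.2 and 308. These settings change the denominator and no member's reads. The log2 ratio of Mir10a was -0.044 with scaling by total reads (adjusted p = 0.0489), -0.056 without a filter (0.0190) and -0.0022 at a minimum of 50 reads (0.917), against 0.02. That of Mir196a-2 was -0.11 with total reads (0.00642) and -0.12 with no filter (0.00438), and was then called. At the common dispersion of edgeR, Mir10b (-0.23) and Mir196b (-0.20) were not called. Members called lower were 2 of 5, but 4 of 5 with total reads, 4 of 6 with no filter and 0 of 5 at the common dispersion. Of the 273 detected genes 92 were lower with total reads, against 81. With no filter 99 were lower, on the larger base of all genes with a read in either library. These settings moved all detected genes by -0.067 and -0.079. All genes called were 172, but 4 at that dispersion (1 lower), where 19 had an unadjusted p under 0.05. Mir10b and Mir196b stayed lower in replicate 2 under each scaling and filter tried. Other pseudocounts and DESeq2 size factors moved no result past its limit. Either replicate alone could not do so, since the limit was the SD and each of 2 values always lies within the SD of their mean. That setting therefore shows nothing. Without 1 library no fold between libraries exists.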
